A study of Mus musculus with 20 samples.

Results

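MicroRNA genes were followed across the 4 groups of a mouse amygdala array study as 1 class. The class holds every probe set that is annotated to a single gene symbol beginning with Mir and a digit, or with Mirlet, and whose normalized log2 value averaged above 5 over all arrays. These were 224 of 305 single-symbol microRNA probe sets and of 28767 probe sets in all, and they carry 221 different symbols. Of the class, 217 are annotated as microRNA genes and 7 as long noncoding RNAs that contain microRNAs, under 4 symbols: Mir100hg, Mir17hg, Mir670hg and Mir99ahg. The mean threshold chose the members by level, so levels are given as a description. The members just inside it were Mir299a at a mean of 5.00, Mir205 at 5.02 and Mir19b-2 at 5.02, and those just outside were Mir542 at 4.98, Mir140 at 4.98 and Mir28a at 4.95. The other 81 microRNA probe sets averaged 5 or less, against 73.4% of microRNA probe sets and 85.4% of all probe sets above 5. A further 61 probe sets name a microRNA together with other genes and were left aside. Mir568 is a member that is also described on its own. It was singled out because of its values in WT mice, which are therefore given without a test.

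Total RNA of left and right amygdalae was hybridised, 1 male mouse per array, to the Mouse Gene 1.0 ST whole-transcript array of Affymetrix in 4 groups of 5 mice aged 7 months. KO mice lack a working 5-HTT gene (Slc6a4, the serotonin transporter that takes serotonin back up into neurons) in every cell, and WT mice were wild-type offspring of the same kind of heterozygous parents. All mice were on a C57BL/6 background, had been housed singly and had been tested on an elevated plus-maze. The KO stress and WT stress groups spent 1 min in water of 22 °C, and the KO con and WT con groups spent 1 min in the home cage, before anaesthesia and dissection. Means of the 7 probe sets for pallial neuron markers (5.73 to 9.0) and the 6 for striatal and central amygdala neuron markers (7.91 to 9.52) all lay above 5. The questions were what an acute stressor changes within minutes in each genotype, and how the genotypes differ with and without it.

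MicroRNA genes are transcribed into long primary transcripts. Drosha with Dgcr8 cuts out a hairpin precursor in the nucleus, Xpo5 exports it, and Dicer1 trims it to a short duplex. One strand is loaded onto an Argonaute protein and pairs with messenger RNAs, mostly through its seed at bases 2 to 8, which lowers their translation and stability. Many microRNA genes sit in introns of host genes or in clusters that are transcribed together. In neurons several microRNAs act close to synapses and shape dendrites and spines. The array was built for whole transcripts, with probes that lie in the precursor gene, so its values are not levels of mature microRNAs. In tissue such as this, fewer cells of a type and less RNA per cell cannot be told apart.

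The sequences of the members on which the results turn are those of RefSeq on GRCm38.p6. All 224 members matched a RefSeq gene by gene ID, and 199 of them had at least 1 mature sequence. Mature sequences are shown first, 5′ to 3′, with the seed in capitals, because members with 1 seed tend to share targets. The set covers Mir568, the members past the fold criterion when KO stress was set against WT stress, the members with the clearest genotype difference, the gene closest to Slc6a4, and neuronal members of the chromosome 12 cluster and of the activity-linked pair.
miR-568 (chr16:43640665-43640684, plus strand): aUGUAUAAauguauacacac
miR-137-3p (chr3:118433901-118433923, plus strand): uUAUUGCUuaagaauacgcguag
miR-15a-5p (chr14:61632075-61632096, minus strand): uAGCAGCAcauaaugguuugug
miR-680 (from 3 genes): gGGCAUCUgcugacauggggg
miR-690 (chr16:28599940-28599961, minus strand): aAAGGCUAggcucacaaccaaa
miR-185-3p (chr16:18327405-18327425, minus strand): aGGGGCUGgcuuuccucuggu
miR-92b-3p (chr3:89227126-89227147, minus strand): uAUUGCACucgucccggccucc
miR-423-5p (chr11:77078122-77078144, minus strand): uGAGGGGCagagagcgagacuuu
miR-679-5p (chr12:109715587-109715608, plus strand): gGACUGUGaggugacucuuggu
miR-134-5p (chr12:109734145-109734166, plus strand): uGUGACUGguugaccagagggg
miR-132-3p (chr11:75173723-75173744, plus strand): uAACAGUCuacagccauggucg
miR-212-3p (chr11:75173443-75173464, plus strand): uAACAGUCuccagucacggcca

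The activity-linked miR-132-3p and miR-212-3p share 1 seed although the rest of their sequences differs. The 3 Mir680 genes lie on chromosomes 6, X and 12 and carry the same mature sequence inside different hairpins. The hairpins are shown because the probe sets of these copies may read one another's RNA, with the mature sequence in capitals, beside that of Mir568.
Mir680-1 hairpin (chr6:129691535-129691643, plus strand): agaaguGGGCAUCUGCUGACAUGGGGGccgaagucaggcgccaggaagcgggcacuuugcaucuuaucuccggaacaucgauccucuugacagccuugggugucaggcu
Mir680-2 hairpin (chrX:144297790-144297899, plus strand): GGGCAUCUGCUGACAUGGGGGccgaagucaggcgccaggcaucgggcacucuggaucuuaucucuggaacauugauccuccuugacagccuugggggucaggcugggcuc
Mir680-3 hairpin (chr12:35194811-35194897, minus strand): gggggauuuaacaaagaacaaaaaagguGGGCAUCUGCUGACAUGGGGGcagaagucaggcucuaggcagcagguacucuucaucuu
Mir568 hairpin (chr16:43640655-43640737, plus strand): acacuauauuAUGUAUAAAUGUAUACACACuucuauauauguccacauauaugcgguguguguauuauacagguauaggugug

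Mir680-1 and Mir680-2 shared 96 identical aligned bases, 88.1% of the shorter hairpin. Mir680-3 shared 57 bases (65.5% of its own length) with Mir680-1 and 51 (58.6%) with Mir680-2, and values of the 3 probe sets are therefore uncertain as to which copy they read.

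Some arrays stood apart before any comparison. The array labelled WT stress replicate 1 had a median correlation of 0.961 with the others and that labelled WT con replicate 1 one of 0.978, while the remaining 18 lay between 0.98 and 0.99. WT stress replicate 1 held the highest value of all 20 arrays for 161 of the 224 members, and WT stress replicate 3 for 38. Slc6a4 itself (chr11:76998597-77032343, plus strand) read 8.10, 8.38, 8.28, 8.35 and 8.27 in KO stress mice and 8.17, 8.20, 8.14, 8.17 and 8.11 in KO con mice. It read 6.55, 6.32, 6.30, 6.44 and 6.35 in WT stress mice and 6.73, 5.82, 6.20, 6.52 and 7.82 in WT con mice. The probe set was thus higher in all 10 KO arrays, and because the sources used here do not place its probes relative to the deleted part, it does not check the deletion. Within WT con, replicate 5 read nearest to the KO arrays, so the main counts and medians that rest on the arrays labelled WT stress replicate 1, WT con replicate 1 and WT con replicate 5 are also given without them.

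The clearest property of the class was a shift between genotypes. In con mice 209 of the 224 members were lower in KO than in WT, against 49.7% of all probe sets, and the median difference was −0.19 log2 units, against 0.00 over all probe sets. In stress mice 215 members were lower in KO than in WT, against 58.6% of all probe sets, with a median of −0.25 against −0.03. These 2 comparisons share no arrays, and 201 members (89.7%) were lower in both, against 37.7% of all probe sets. Mir124a-2, from the most neuron-typical microRNA family, was the 1 member higher in both.

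Single members seldom passed a test. By limma, 19 members were lower in KO con than in WT con at an unadjusted p under 0.05 and none was higher, where 1.67% of all probe sets were lower at that level. The corresponding counts for KO stress against WT stress were 31 lower and none higher, with a background of 6.23%. Among the 31 is Mir568, whose WT stress values, for which it was chosen, enter this comparison. The methods' t-test on the same values passed 7 members in stress mice (3.02% of all probe sets lower) and 47 in con mice (3.19% of all probe sets lower), all of them lower. Which treatment had more passing members thus depended on the test. The limma fit uses 1 estimate of spread for all 4 groups, so stress arrays also enter the p-values of con mice. Without WT stress replicate 1, 52 members were lower in KO con at an unadjusted limma p under 0.05 (background 4.07%), with the con median unchanged at −0.19. None of the 224 had a limma p under 0.05 after Benjamini-Hochberg adjustment over all probe sets in either comparison, where 1 probe set in all did in stress mice (0.00348%) and 0 in con mice. The smallest adjusted p was 0.929 in con mice and 0.53 in stress mice. The criterion of the study (more than 1.5-fold apart at an uncorrected p below 0.05) was met by 0 members in con mice (background 0.0487%) and by 5 members in stress mice (background 0.421% for lower calls).

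The same shift is visible array by array. After each probe set was centred on its mean over 20 arrays, the median over the members was −0.11, −0.11, −0.12, −0.02 and −0.20 in the KO stress arrays. It was −0.10, −0.05, −0.18, −0.12 and −0.03 in the KO con arrays. All 10 KO arrays thus lay below the mean of the series. The WT stress arrays had 0.67, 0.01, 0.25, −0.17 and −0.10, and the WT con arrays −0.02, 0.06, 0.15, −0.05 and 0.16. The WT arrays overlapped the KO arrays in both treatments and were spread much more widely, with group values of −0.11 ± 0.06 for KO stress, −0.09 ± 0.06 for KO con, 0.13 ± 0.34 for WT stress and 0.06 ± 0.10 for WT con (mean ± SD, n = 5 each).

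**Figure D1:**
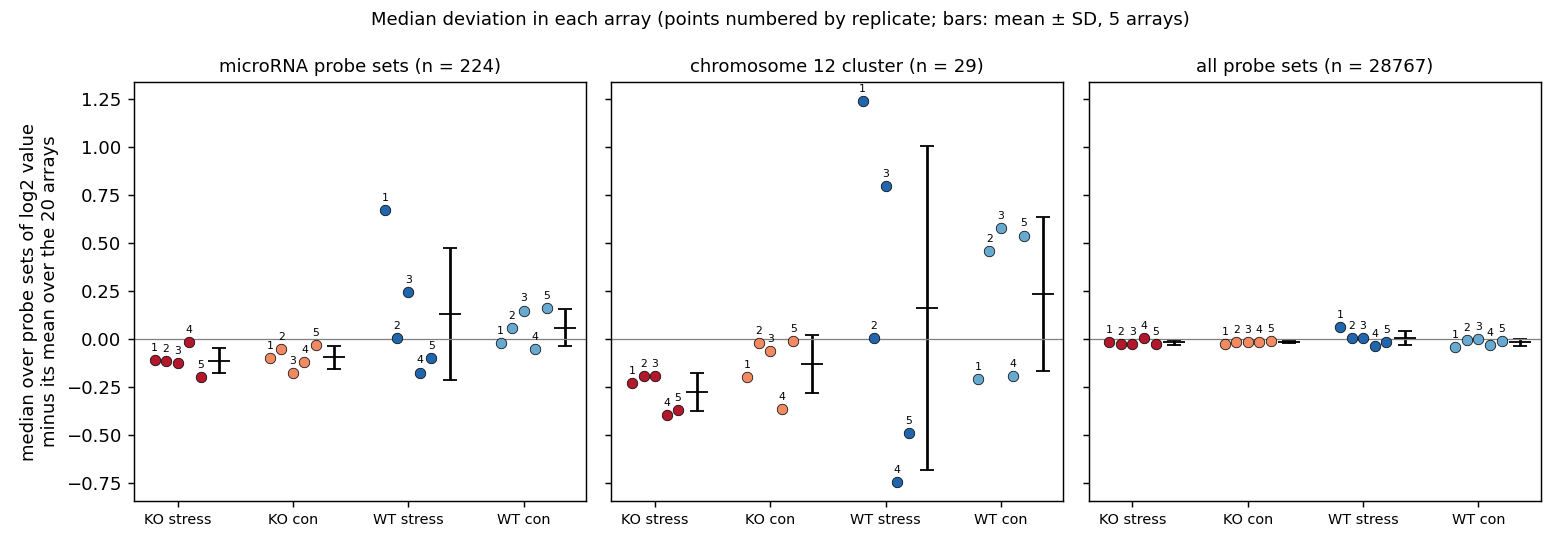
Median in each of 20 arrays of the log2 value minus the probe set's mean over all arrays, for the 224 microRNA probe sets, the chromosome 12 cluster of 29 described further on, and all probe sets. Points are arrays numbered by replicate, bars are mean ± SD of 5. In the microRNA panel the 10 KO arrays lie between −0.20 and −0.02, and WT stress replicate 1 stands at 0.67.

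The wider spread in WT also held probe set by probe set. The SD over 5 mice was larger in WT stress than in KO stress for 211 members (94.2%, against 78.0% of all probe sets), with median SDs of 0.16 in KO stress and 0.38 in WT stress. In con mice it was larger in WT for 164 members (73.2%, against 66.7% of all probe sets), with median SDs of 0.17 in KO con and 0.22 in WT con.

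How large the shift was depended on single WT arrays in stress mice and less so in con mice. Without WT stress replicate 1, 189 members were lower in KO stress than in WT stress with a median of −0.10, and 11 were lower at an unadjusted limma p under 0.05 (background 2.82%). Leaving out WT stress replicate 4 instead gave 92 such members (background 10.8%), and leaving out replicate 5 gave 71 (background 7.98%). In con mice, leaving out WT con replicate 5 left 207 members lower, a median of −0.17 and 5 at p under 0.05 (background 1.12%). Without both replicate 1 arrays of WT the con comparison gave 211 lower members, a median of −0.21 and 64 at p under 0.05 (background 4.6%). The direction of the class median was the same in all of these fits.

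The shift was present at every level of signal. In con mice the median was −0.14 over the 99 members with means of 5 to 6, −0.23 over the 78 with means of 6 to 7, −0.29 over the 35 with means of 7 to 8, and −0.32 over the 12 above 8. In stress mice the corresponding medians were −0.19, −0.28, −0.39 and −0.32. All probe sets in the same bins had medians between −0.05 and 0.09 in con mice and between −0.08 and 0.06 in stress mice. The 81 microRNA probe sets at or under 5 differed little, with medians of −0.03 in con and −0.04 in stress mice.

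Another class of short RNA genes moved beside the microRNA genes. Of 54 probe sets for small nucleolar RNAs, which guide modification of ribosomal RNA, 45 were lower in con mice without the transporter than in WT con (median −0.12), and 53 were lower in stress mice without it than in WT stress (median −0.25). That stress median was −0.13 without WT stress replicate 1, with 51 lower. Their medians over the WT stress arrays were 0.62, 0.03, 0.45, −0.19 and −0.08, high in the same replicates 1 and 3 as the microRNA class. Probe sets with no gene symbol and a mean above 5, of which there were 3998, had medians of −0.05 in con and −0.10 in stress mice. The part that such array-wide behaviour of short transcripts has in the microRNA result was not tested.

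**Figure D2:**
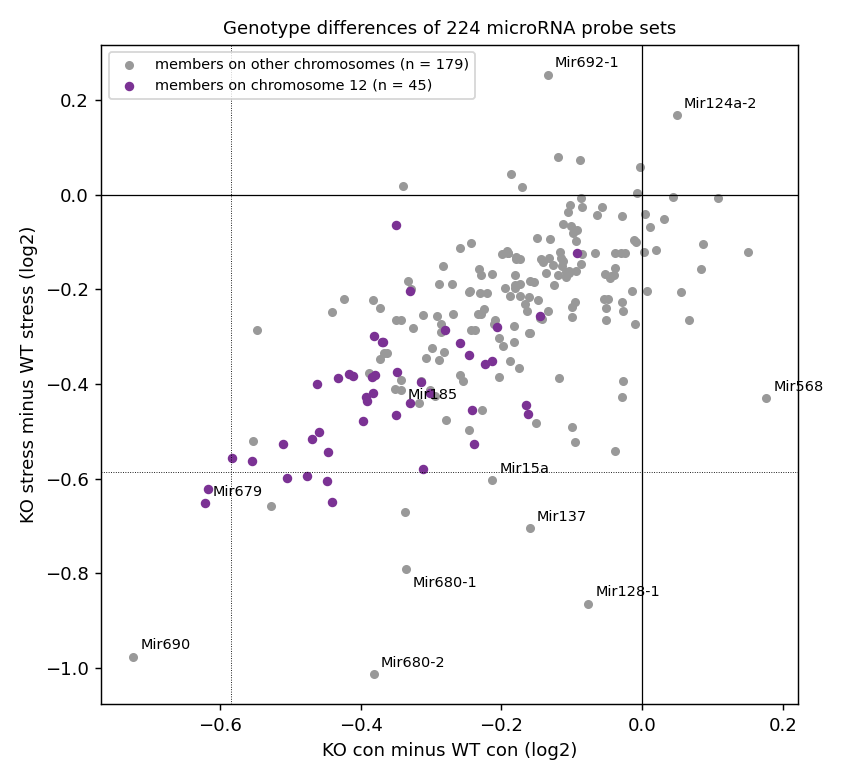
Difference of mean log2 values of KO con minus WT con (x axis) against KO stress minus WT stress (y axis) for each microRNA probe set, with the 45 members on chromosome 12 in purple and dotted lines at a 1.5-fold lower value. Most points lie below 0 on both axes, where 201 of 224 members are found.

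The members lay on 20 chromosomes, 45 of them on chromosome 12, 21 on X and 14 on chromosome 11. With neighbours at most 10000 bp apart on 1 strand counted as a cluster, 108 members fell into 39 clusters. The largest had 29 members over 34.4 kb (chr12:109709060-109743496, plus strand, GRCm38.p6), beginning with Mir379 and ending with Mir369. It lies in an imprinted region expressed from the maternal chromosome, after the noncoding genes Meg3 (chr12:109540996-109571729) and Rian (chr12:109603945-109661716), and its end overlaps the noncoding gene Mirg (chr12:109734981-109749458). In rat neurons a member of this cluster, Mir134, limits the growth of dendritic spines.

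All 29 cluster members were lower in KO con than in WT con, with differences from −0.62 to −0.09 and a median of −0.38. All 29 were also lower in KO stress than in WT stress, from −0.65 to −0.12, with a median of −0.45. Mir679 had the largest difference in both comparisons and Mir666 the smallest. In con mice 1 of the 29, Mir412, passed an unadjusted limma p under 0.05, and in stress mice 0 did, so the members are alike in direction but not separately distinguishable from the spread between mice.

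Values of Mir679 show that spread. It read 8.49, 8.46, 8.38, 8.37 and 8.07 in KO stress mice and 8.46, 8.91, 8.31, 8.11 and 8.88 in KO con mice. It read 10.53, 8.76, 9.84, 7.86 and 8.05 in WT stress mice and 8.85, 9.27, 9.66, 8.63 and 9.37 in WT con mice. WT stress replicates 1 and 3 were the highest arrays and replicates 4 and 5 the lowest of the series, so the KO stress values lay inside the WT stress range. The con groups overlapped as well, with a difference of −0.62 (limma p = 0.122, exact two-sided permutation p = 0.0476, n = 5 each). Mir679 is among the genes the study itself had listed from these arrays.

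As a unit the cluster behaved the same way. Its median over the 29 centred probe sets lay between −0.39 and −0.19 in KO stress arrays and between −0.36 and −0.01 in KO con arrays. In WT stress it was 1.24, 0.01, 0.80, −0.74 and −0.49, and in WT con −0.21, 0.46, 0.58, −0.19 and 0.54. Mice of 1 genotype and treatment therefore differed in WT by more than the genotypes did. The median SD over mice was 0.18 in KO stress, 0.24 in KO con, 0.88 in WT stress and 0.41 in WT con, and the SD in WT stress exceeded that in KO stress for 29 of 29 members, as did the SD in WT con for 26 of 29 against KO con.

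**Figure D3:**
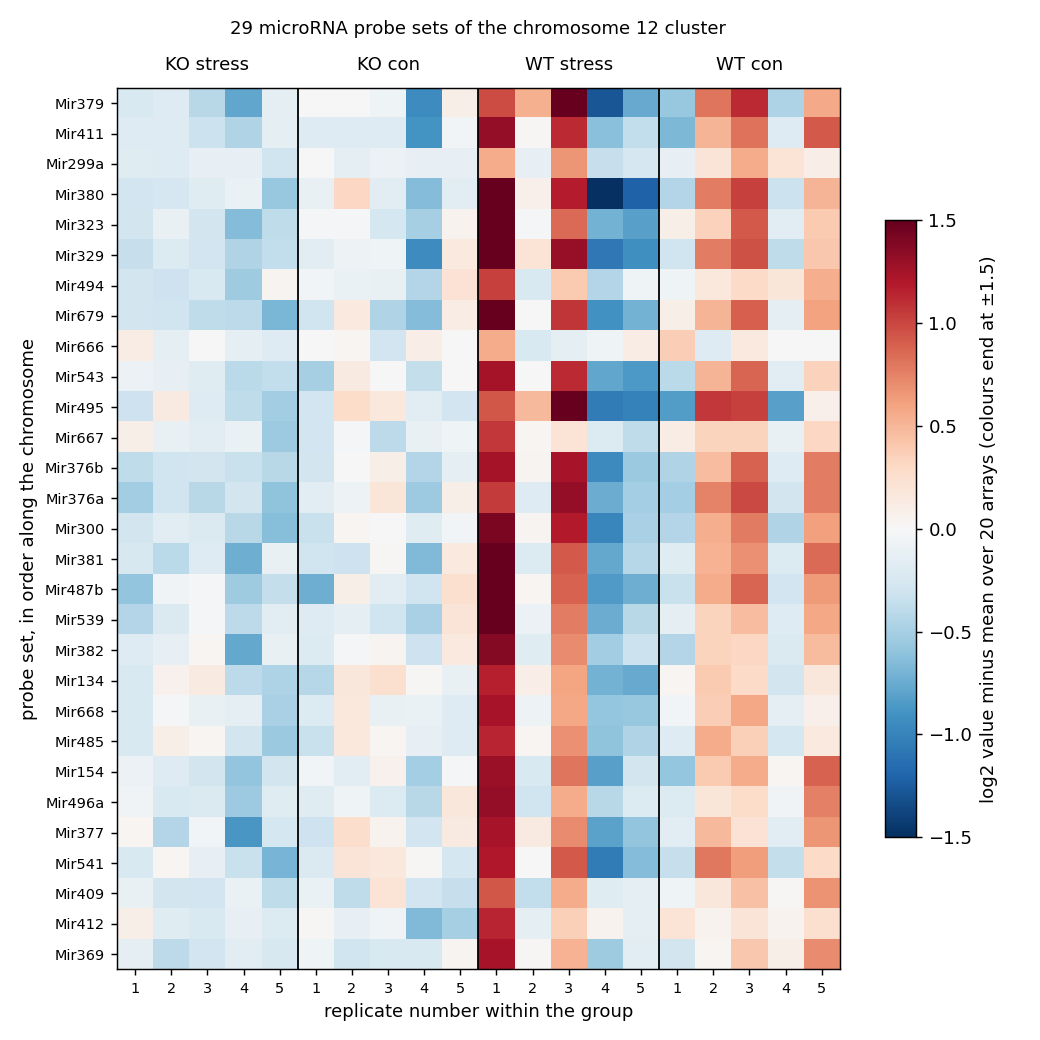
Values of the 29 cluster members (rows, in order along chromosome 12) in 20 arrays (columns, grouped), as log2 value minus the mean over the arrays, with colours ending at ±1.5. WT stress replicates 1 and 3 are high and replicates 4 and 5 low across nearly the whole cluster, while KO columns stay close to 0.

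The cluster members also varied together. After group means were subtracted, the median Pearson correlation between pairs of the 29 over 20 arrays was 0.84 (lowest −0.14) and was 0.77 without both WT replicate 1 arrays, given as a description since all pairs share arrays. The median between pairs of all members was 0.516. Rian, the noncoding gene before the cluster, read 9.25, 9.17, 8.94, 9.03 and 8.62 in KO stress mice and 8.82, 9.50, 9.18, 8.88 and 9.07 in KO con mice. It read 10.26, 9.47, 10.44, 7.81 and 8.14 in WT stress mice and 8.13, 9.82, 10.42, 8.86 and 9.43 in WT con mice. The same WT stress replicates 1 and 3 were high and 4 and 5 low. Meg3, farther from the cluster, averaged 12.33 ± 0.09 in KO stress, 12.35 ± 0.10 in KO con, 12.49 ± 0.50 in WT stress and 12.60 ± 0.22 in WT con (SD, n = 5 each).

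Leaving out WT stress replicate 1 reduced the cluster's median difference between KO stress and WT stress to −0.17, with 26 of 29 members lower. Without WT con replicate 5 the con median was −0.30. All 45 members on chromosome 12 were lower in both comparisons. The 179 members on other chromosomes had medians of −0.16 in con mice, with 164 lower, and of −0.21 in stress mice, with 170 lower, a selection made after the values had been seen. Their stress median was −0.09 without WT stress replicate 1, with 149 lower.

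Of the 5 members that met the study criterion for KO stress against WT stress, Mir137 is a neuron-enriched gene that acts in neuronal maturation. It read 5.50, 5.76, 5.86, 5.37 and 5.47 in KO stress mice and 6.89, 6.21, 6.72, 5.70 and 5.95 in WT stress mice, where replicate 4 lay within the KO range. It was 1.63-fold lower in KO stress, a difference of −0.70 ± 0.23 (SE) with a limma p of 0.00601, an adjusted p of 0.53 and an exact permutation p of 0.0238. In con mice it read 5.79, 5.56, 5.80, 5.60 and 6.09 in KO and 5.92, 6.40, 6.10, 5.13 and 6.10 in WT, a difference of −0.16 that did not pass (limma p = 0.489, exact permutation p = 0.548).

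Mir15a, which restrains Bcl2 in human leukaemia cells, read 6.19, 6.68, 6.45, 6.76 and 6.51 in KO stress mice and 7.99, 6.97, 7.53, 6.51 and 6.60 in WT stress mice. It was 1.52-fold lower in KO stress (−0.60 ± 0.22 SE, limma p = 0.0128), and the groups overlapped (exact permutation p = 0.0873). Mir690 read 5.98, 6.16, 5.84, 6.21 and 6.46 in KO stress mice and 8.59, 6.77, 8.07, 5.89 and 6.22 in WT stress mice. Its 1.97-fold lower mean (limma p = 0.0395) came with WT stress replicates 1, 2 and 3 above the KO range and 4 and 5 in it, and the exact permutation p was 0.111. KO con minus WT con was −0.72 for Mir690 (exact permutation p = 0.103), the largest con difference of the class. For Mir15a it was −0.21 (exact permutation p = 0.135). Mir690 lies inside Fgf12 and Mir15a inside the noncoding Dleu2.

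Mir680-1 and Mir680-2, the near-identical copies on chromosomes 6 and X, completed the 5. Mir680-2 read 7.43, 7.15, 7.15, 7.70 and 7.39 in KO stress mice and 9.996, 8.09, 8.75, 7.21 and 7.84 in WT stress mice, the largest fold of the class at 2.02-fold lower (difference −1.01 ± 0.36 SE, limma p = 0.0115, exact permutation p = 0.0476). Mir680-1 read 6.79, 6.72, 6.39, 6.98 and 7.04 in KO stress mice and 8.55, 7.27, 7.86, 6.77 and 7.43 in WT stress mice, 1.73-fold lower (limma p = 0.00867, exact permutation p = 0.0317). For both, WT stress replicate 4 lay within the KO range. Without WT stress replicate 1 the differences were −0.61 for Mir680-2, −0.55 for Mir680-1, −0.56 for Mir137, −0.39 for Mir15a and −0.60 for Mir690.

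Mir680-3, the more distant copy, had differences of similar size in both treatments. It read 7.86, 7.57, 7.42, 7.59 and 7.79 in KO con mice and 8.22, 7.90, 8.18, 7.86 and 8.16 in WT con mice, which did not overlap. The difference was −0.42 ± 0.20 (SE, limma p = 0.049, exact permutation p = 0.00794, the smallest that 5 against 5 allows). In stress mice it was −0.38 with overlap (limma p = 0.0707, exact permutation p = 0.143). The other copies also read lower in KO con than in WT con, by −0.34 for Mir680-1 (exact permutation p = 0.206) and −0.38 for Mir680-2 (exact permutation p = 0.159). Whether the copies differ from each other in genotype difference was not tested.

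The 1 member whose groups did not overlap in either genotype comparison was Mir185, a gene inside Tango2 whose human counterpart lies, like that of Dgcr8, in the region deleted in DiGeorge syndrome. It read 6.85, 6.84, 6.70, 6.87 and 6.53 in KO stress mice and 7.66, 6.96, 7.21, 6.94 and 6.98 in WT stress mice. It read 6.85, 7.02, 6.80, 6.80 and 6.85 in KO con mice and 7.44, 7.17, 7.27, 7.13 and 7.04 in WT con mice. The highest KO array thus lay below the lowest WT array in each treatment. Of all probe sets, 0.66% were lower without overlap in stress mice and 0.41% in con mice, and the share in both was not counted. The differences of Mir185 were −0.39 ± 0.12 (SE) in stress mice (limma p = 0.00333) and −0.34 ± 0.12 in con mice (limma p = 0.00848), with an exact permutation p of 0.00794 in each. Leaving out any 1 array kept them between −0.44 and −0.27 in stress and between −0.39 and −0.28 in con mice, and neither passed adjustment over all probe sets.

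Mir92b, whose seed is that of the miR-25 and miR-92 family, was like it. It read 7.22, 7.21, 7.27, 7.19 and 6.99 in KO stress mice and 8.20, 7.28, 7.53, 7.44 and 7.50 in WT stress mice, which did not overlap (−0.41 ± 0.14 SE, limma p = 0.00853, exact permutation p = 0.00794). In con mice it read 7.42, 7.23, 7.0, 7.35 and 7.31 in KO and 7.94, 7.40, 7.52, 7.40 and 7.56 in WT, with a slight overlap (−0.30 ± 0.14 SE, limma p = 0.0447, exact permutation p = 0.0238). Mir185, Mir92b, Mir501 and Mir697 were the 4 members lower at an unadjusted limma p under 0.05 in both genotype comparisons. Of all probe sets, 1.67% were lower at that level in con mice and 6.23% in stress mice, and the share in both was not counted. Mir697 had differences of −0.31 in con mice (limma p = 0.0108, exact permutation p = 0.0238) and −0.25 in stress mice (limma p = 0.0321, exact permutation p = 0.0476). Mir501 had −0.29 in both (limma p = 0.0481 in con and 0.0447 in stress mice), where the exact permutation p was 0.0556 in con and 0.111 in stress mice.

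Counting only groups without overlap, 8 members were lower in all KO con than in all WT con mice, where 0.41% of all probe sets were. They were Mir185, Mir193a, Mir211, Mir30c-1, Mir345, Mir412, Mir423 and Mir680-3. In stress mice 2 members were lower without overlap, Mir185 and Mir92b, against a background of 0.66%, and 1 was higher, Mir124a-2, against 0.358%. Mir124a-2 lay between 6.24 and 6.34 in KO stress mice and between 5.77 and 6.22 in WT stress mice, a difference of 0.17 ± 0.10 (SE, limma p = 0.0995, exact permutation p = 0.00794). Of these, Mir193a, Mir211, Mir30c-1, Mir345, Mir412, Mir680-3, Mir92b and Mir124a-2 were named after their values had been seen. For a member picked because its groups do not overlap, an exact permutation p of 0.00794 follows from the choice. Mir185 was named for its small limma p on the same values, so its exact permutation p is not a separate check.

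**Figure D4:**
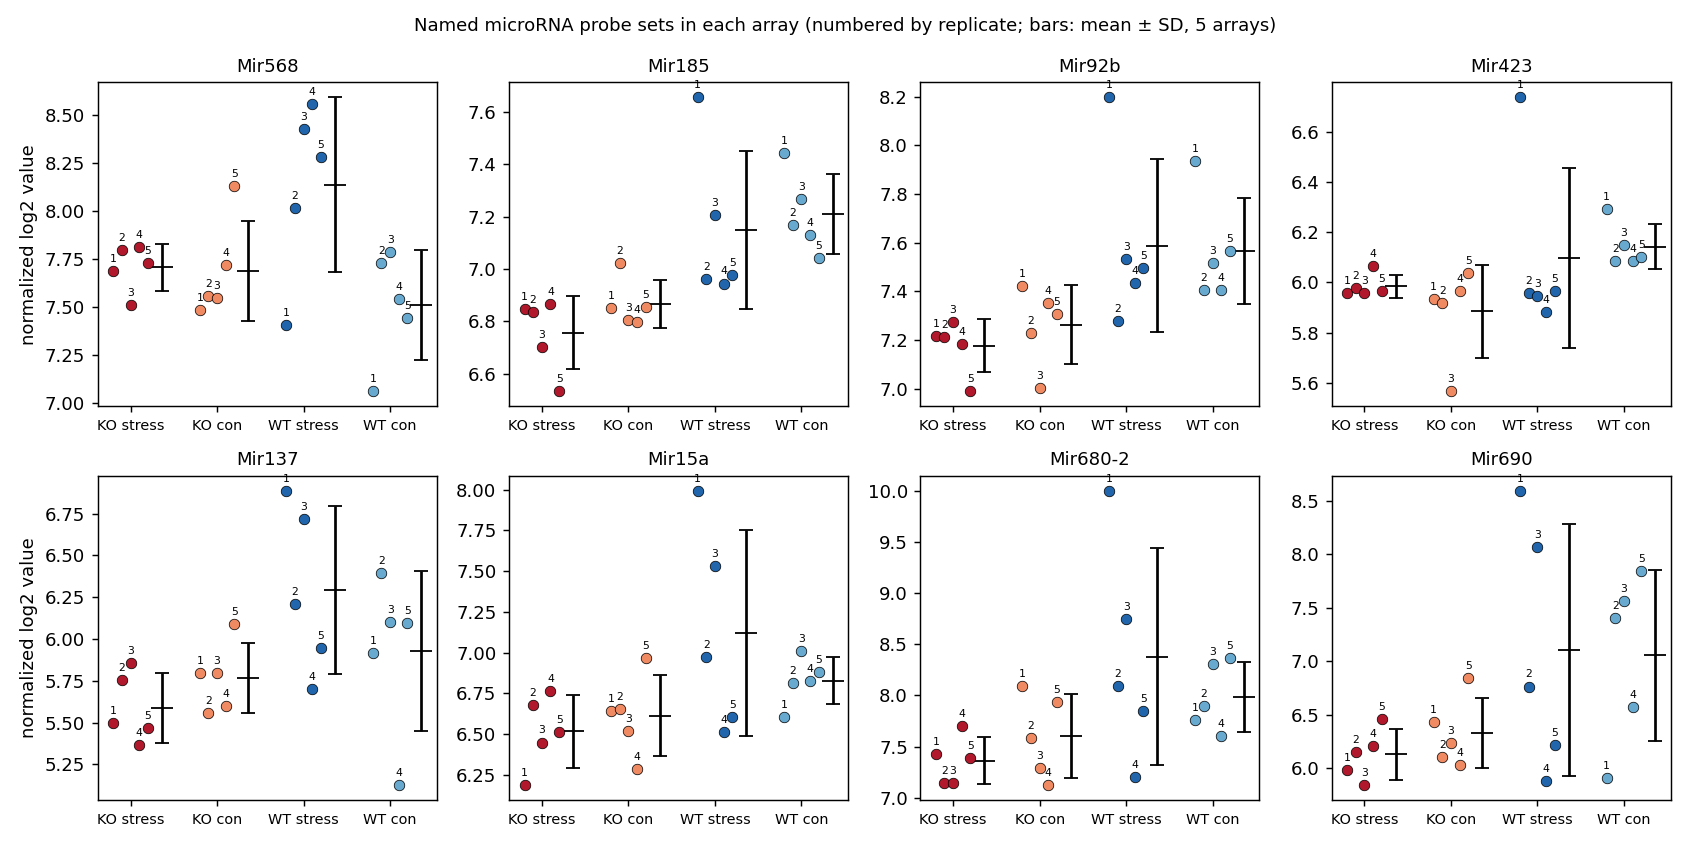
Normalized log2 values of 8 named microRNA probe sets in each mouse, numbered by replicate, with bars for mean ± SD of 5. Mir185 separates both KO groups from their WT groups, and for Mir137, Mir15a, Mir680-2 and Mir690 replicates 1 and 3 are the highest WT stress arrays.

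Mir423 is the member closest to the targeted gene, 45.7 kb from Slc6a4 on chromosome 11, inside Nsrp1. It read 5.93, 5.92, 5.57, 5.97 and 6.04 in KO con mice and 6.29, 6.08, 6.15, 6.09 and 6.10 in WT con mice, without overlap (−0.26 ± 0.13 SE, limma p = 0.057, exact permutation p = 0.00794). In stress mice it read 5.96, 5.98, 5.96, 6.07 and 5.97 in KO and 6.74, 5.96, 5.95, 5.88 and 5.97 in WT, where only replicate 1 stood above the KO range (−0.11, limma p = 0.386, exact permutation p = 0.976). Within 20 Mb of Slc6a4 lay 9 members, all lower in KO in both comparisons, with medians of −0.18 in con and −0.12 in stress mice, beside class medians of −0.19 in con and −0.25 in stress mice. The smallest limma p in con mice was that of Mir3068 on chromosome 12, with a difference of −0.33 ± 0.11 (SE, p = 0.00808, exact permutation p = 0.0159). In stress mice Mir378a had the third smallest, with −0.48 ± 0.16 (SE, limma p = 0.00749, exact permutation p = 0.0397).

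The acute stressor itself moved few members in either genotype. In WT mice 144 members were higher and 80 lower in stress than in con, against 62.8% of all probe sets higher, with a median of 0.03 over the members and 0.03 over all probe sets. In KO mice 98 were higher and 126 lower, against 51.1% of all probe sets lower, with a median of −0.01 against 0.00. These splits were set by few arrays and by scaling. Without WT stress replicate 1 the WT comparison had 176 members lower and a median of −0.09. After quantile normalization it had 116 higher and 108 lower, and after each array was centred on its median 106 higher and 118 lower. In KO mice the same scalings gave 82 higher and 142 lower, and 59 higher and 165 lower.

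With Mir568 set aside, since it was chosen for these values, 0 members met the study criterion between stress and con in WT mice (background 0.24%), and 0 passed an unadjusted limma p under 0.05 (background 3.54%). Without WT stress replicate 1, 9 members were lower in WT stress at that level (background 1.21%). Without WT stress replicate 4, 7 members beside Mir568 were higher (background 4.51%), and leaving out any other single WT array gave at most 2 members beside Mir568 in either direction. In KO mice 0 members met the criterion (background 0.139%) and 0 passed an unadjusted limma p under 0.05 (background 1.13%). The next smallest limma p in WT mice belonged to Mir184 (0.22 higher in stress, p = 0.0582, exact permutation p = 0.0556) and Mir9-3 (0.17 higher, p = 0.0925, exact permutation p = 0.0952). In KO mice the smallest belonged to Mir692-1 (0.31 higher, p = 0.0974), Mir331 (−0.26, p = 0.138) and Mir7-2 (0.16 higher, p = 0.143), with exact permutation p of 0.127 for Mir692-1, 0.0397 for Mir331 and 0.135 for Mir7-2. In the test of whether the stress difference differed between genotypes, Mir568 was again set aside because its WT values enter the contrast, and 0 other members passed an unadjusted limma p under 0.05, where 2.52% of all probe sets did. Mir205 (−0.33) and Mir670 (0.36) had the smallest p of these.

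Mir568 read 7.69, 7.80, 7.51, 7.82 and 7.73 in KO stress mice and 7.49, 7.56, 7.55, 7.72 and 8.13 in KO con mice. It read 7.41, 8.02, 8.43, 8.56 and 8.28 in WT stress mice and 7.06, 7.73, 7.79, 7.54 and 7.44 in WT con mice. In WT mice 4 of 5 stress arrays exceeded every con array, and WT stress replicate 1, which was highest of all arrays for most of the class, was the lowest of its group here. WT stress exceeded WT con by 0.63 log2 units (1.54-fold), which describes the values for which the gene was chosen. KO stress minus KO con was 0.02 ± 0.18 (SE, limma p = 0.919, exact permutation p = 0.929). The genotype differences, which share the WT arrays, were −0.43 for KO stress minus WT stress and 0.18 for KO con minus WT con.

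Mir568 lies 6.3 kb past the end of Zbtb20 on the same strand, and inside Tigit on the opposite strand. Zbtb20 codes for a transcriptional repressor known from hippocampal development, and its 2 probe sets were 0.43 and 0.36 higher in WT stress than in WT con mice. In KO mice they were 0.21 and 0.14 higher in stress. Tigit, an immune receptor gene, differed by 0.01 in each genotype. The part of Zbtb20 transcription in the Mir568 values was not tested.

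Grouped by the cell types in which they are known to be enriched, the members had the same direction between genotypes in each group. Of 21 neuron-enriched members, 20 were lower in KO con than in WT con (median −0.16), of which Mir149 passed an unadjusted p under 0.05 (background 1.67%). In stress mice 19 were lower (median −0.26) and 5 passed (background 6.23%), with Mir128-1 the largest at −0.86 (limma p = 0.0695, exact permutation p = 0.206) and Mir137 next. Mir128-1 and Mir128-2 code for the same neuronal microRNA from hosts on separate chromosomes, and Mir128-2 had −0.49 (limma p = 0.0117, exact permutation p = 0.0635). The 3 activity-linked members Mir132, Mir134 and Mir212, whose transcription follows neuronal firing through Creb or Mef2, were lower in both genotype comparisons without passing. They differed by −0.05 to 0.02 between WT stress and WT con, where 0 passed.

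Members typical of other cells gave values of similar size. Of 5 glia-enriched members 4 were lower in each genotype comparison, and Mir23a had −0.33 in con mice (limma p = 0.0206, exact permutation p = 0.0159). All 9 members typical of choroid plexus and epithelium were lower in both. Mir204, known from choroid plexus, differed by −0.39 in con mice (limma p = 0.0555, exact permutation p = 0.0317), where 4 of 5 KO arrays lay below every WT array, and by −0.38 in stress mice (limma p = 0.0614, exact permutation p = 0.198). Of the 9, Mir34b was lower in stress mice at an unadjusted limma p under 0.05 (−0.25, p = 0.0496, exact permutation p = 0.0952). The 3 members known from blood and immune cells were also lower in both, as was Mir143 of vessel smooth muscle (−0.05 in con and −0.22 in stress mice), none of them passing. Marker genes of the choroid plexus itself, 12 of 12 with means above 5, had a median difference of 1.05 between KO stress and KO con, where 7 met the criterion (background 0.139%). Most of the 12, among them Ttr, Kcnj13 and Kl, are on the study's own list for that comparison from these arrays. The count of 7 therefore describes the values and is no separate support. The median difference of the 12 markers was −0.36 between KO con and WT con and 0.40 between KO stress and WT stress. Their median centred value ranged from −0.52 to 1.75 in KO stress, from −0.74 to −0.39 in KO con, from −0.72 to 2.82 in WT stress and from −0.47 to 0.02 in WT con arrays. The array at 2.82 was WT stress replicate 4, which was low for the chromosome 12 cluster. In stress mice the marker genes were higher and the 9 members lower in KO, and in con mice both were lower. With a choroid plexus score as a covariate the class medians were −0.21 in con and −0.23 in stress mice. The part of choroid plexus tissue in the microRNA result was not tested.

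Some markers of other cells moved with the genotype comparison in stress mice as well. Of 7 markers of pallial excitatory neurons, 6 had lower values in stress mice lacking the transporter than in WT stress mice (median −0.30), against 58.6% of all probe sets. The criterion was met by 1 marker (background 0.421% for lower calls), and in con mice 4 markers were lower (median −0.03). Their median centred value ranged from −0.46 to 0.68 in KO stress, from −0.38 to 0.39 in KO con, from −0.30 to 0.78 in WT stress and from −0.54 to 0.54 in WT con arrays. With a score of these markers as a covariate the class medians were −0.19 in con and −0.23 in stress mice. All 5 astrocyte markers were higher in KO stress (median 0.24), 2 of them at an unadjusted limma p under 0.05. With single arrays left out, 1.43% to 5.24% of all probe sets were higher at that level. In con mice 3 of the astrocyte markers were higher (median 0.01). Their median centred value ranged from −0.09 to 0.40 in KO stress, from −0.17 to 0.22 in KO con, from −0.79 to 0.18 in WT stress and from −0.25 to 0.23 in WT con arrays. All 8 markers of meninges and fibroblasts were higher in KO stress (median 0.53), while in con mice 6 were lower (median −0.16). Their median centred value ranged from −0.20 to 1.56 in KO stress, from −0.62 to −0.01 in KO con, from −0.50 to 0.47 in WT stress and from −0.44 to 1.02 in WT con arrays. For microglia, oligodendrocyte and endothelium markers, the group means of the median centred value all lay between −0.11 and 0.09. For the 6 striatal and central amygdala neuron markers the median centred value ranged from −0.59 to 0.49 in KO stress and from −0.80 to 0.84 in KO con arrays. In WT stress it ranged from −1.01 to 0.81, and in WT con from −0.99 to 1.13. Its group means were 0.07 in KO stress, 0.18 in KO con, 0.02 in WT stress and −0.31 in WT con. The part of the pallial, astrocyte and meningeal markers in the microRNA result was not tested. No part is assigned here to the striatal and central amygdala markers.

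Grouping by seed gave 6 families with at least 4 members each. The let-7 family (seed GAGGUAG, 8 members), which keeps cells differentiated, had 7 lower in con (median −0.14) and 8 in stress mice (median −0.16). The miR-30 family with Mir384 (seed GUAAACA, 5 members) had 5 lower in con (median −0.18) and 5 in stress mice (median −0.28), 3 of which passed an unadjusted limma p under 0.05 (background 6.23%). The family of Mir15a, Mir16, Mir195a and Mir497 (seed AGCAGCA, 5 members) had 5 lower in each, with medians of −0.14 in con and −0.26 in stress mice, where 2 passed (background 6.23%). The miR-181 family (seed ACAUUCA, 5 members) had a median of −0.12 in con mice and −0.17 in stress mice. That of miR-17 (seed AAAGUGC, 4 members) had −0.20 in con and −0.22 in stress mice, and that of miR-25 and miR-92 (seed AUUGCAC, 4 members) had −0.07 in con and −0.11 in stress mice.

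Of the 217 members annotated as microRNA genes, 98 lay inside a host gene on the same strand, 7 inside a gene on the opposite strand only, 94 in no other gene, and 18 had no strand in the annotation. For 69 members the host had a single-symbol probe set, from 54 hosts. The correlation of member and host over 20 arrays, after group means were subtracted, had a median of 0.194, against 0.112 for the same members with all probe sets. Of the 69 pairs 46 were positive, and 12 had both a Pearson and a Spearman permutation p under 0.05 after Benjamini-Hochberg adjustment over the pairs. The median was 0.236 without both WT replicate 1 arrays, and 0.146 without the 2 arrays farthest from the host's median.

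Mir128-1 followed R3hdm1, the gene that contains it, most closely, with r = 0.967 and rho = 0.955 (100000 permutations within groups, adjusted p = 0.00069 for each). It kept r = 0.949 without the 2 farthest arrays. Mir341 followed Rian with r = 0.9 and rho = 0.833 (adjusted permutation p = 0.00621 and 0.00707, r = 0.886 without the 2 farthest arrays), and Mir186 followed the splicing factor gene Zranb2 with r = 0.851 and rho = 0.892 (adjusted permutation p = 0.0069 and 0.00276, r = 0.794). At the other end stood Mir423 with Nsrp1, at r = −0.792 and rho = −0.686 (adjusted permutation p = 0.0393 and 0.0159). That relation was −0.506 without the 2 farthest arrays and −0.297 without both WT replicate 1 arrays, so it rested in part on those. Mir697 with Sf3a3 (r = −0.689, rho = −0.478) and Mir107 with Pank1 (r = −0.673, rho = −0.516) came next, and without both WT replicate 1 arrays they had r = −0.0506 and r = −0.346. Mir185 with Tango2 had r = −0.554 and rho = −0.598 (adjusted permutation p = 0.0175 and 0.0442) and kept −0.585 and −0.607 under the same omissions.

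**Figure D5:**
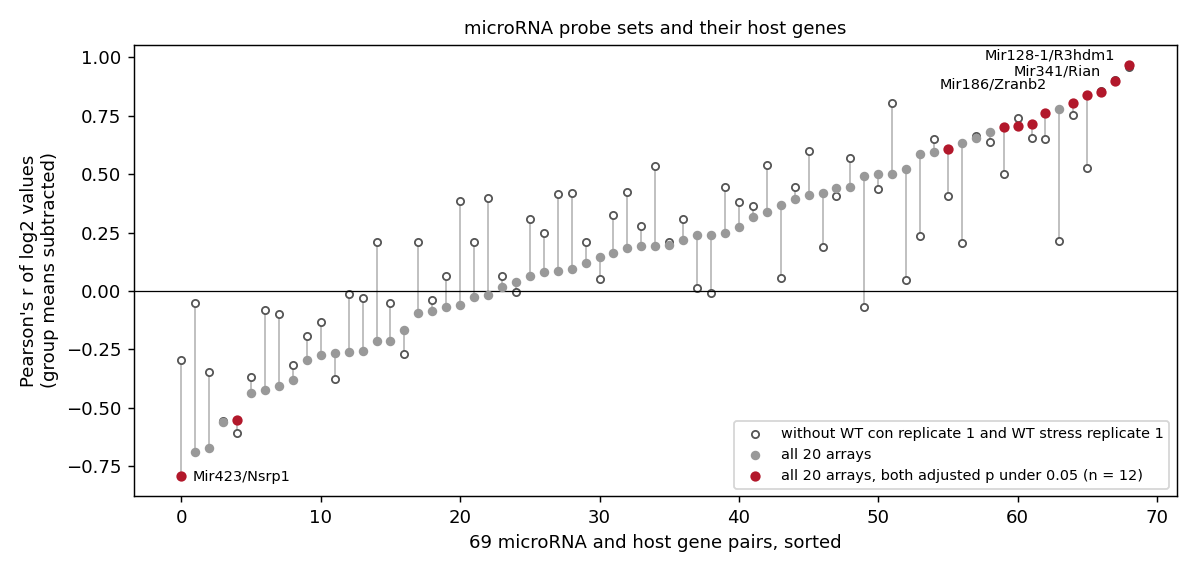
Pearson correlation of each of 69 microRNA probe sets with its host gene over 20 arrays (group means subtracted, filled points, sorted) and without both WT replicate 1 arrays (open points). Red points mark the 12 pairs with both adjusted p under 0.05, from −0.792 for Mir423 with Nsrp1 to 0.967 for Mir128-1 with R3hdm1.

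Genes of the microRNA pathway had medians near 0 between genotypes. Among 29 probe sets for processing, export and silencing factors, 12 were lower in KO con than in WT con (median 0.02), against 49.7% of all probe sets. At an unadjusted limma p under 0.05, 0 passed (background 1.67% for lower calls). In stress mice 18 were lower (median −0.04), against 58.6% of all probe sets, and 1 passed (background 6.23% for lower calls). It was the RNA helicase gene Ddx17 that assists Drosha (−0.22, limma p = 0.0315, exact permutation p = 0.0714). Between WT stress and WT con 23 were higher, against 62.8% of all probe sets, and 2 passed (background 3.54%). These were Tut7, which adds uridines to let-7 precursors (0.22, limma p = 0.0347, exact permutation p = 0.0794), and 1 of 2 probe sets of Tarbp2, a partner of Dicer1 (0.19, limma p = 0.0438, exact permutation p = 0.0556). Between KO stress and KO con 14 were higher, 15 were lower (51.1% of all probe sets were) and 0 passed (background 1.13%).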

How the data were processed

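The deposited table holds log2 values, 1 column per array, which the authors made from the scanned arrays with the ExonRMA algorithm in ArrayAssist, followed by variance stabilization. Gene symbols came from the platform annotation and were matched by gene ID to RefSeq (GRCm38.p6). The values were used as deposited, with 20 arrays, 28767 probe sets and 0 columns left unmapped. Groups came from the labels, and each array is a separate mouse, so the number of mice limits the precision. Replicate numbers in the labels were checked for pairing: WT stress and WT con arrays of 1 number deviated together (every correlation over 0.1, 0.16 to 0.42), while each other pair of groups had at least 1 number at or under 0.1.

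A model of 4 group means was fitted over all probe sets with limma 3.58.1 (lmFit and eBayes, R 4.3.3), with contrasts of stress minus con in each genotype, of KO minus WT in each treatment, and of the interaction, and with Benjamini-Hochberg adjustment over all probe sets. The fit was tested on simulated data. Single named members were also compared by exact two-sided permutation of 5 against 5 (scipy 1.17.1), whose smallest p is 0.00794. Fold changes are differences of mean log2 values. Host pairs used 100000 permutations within groups.

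Members, gene lists and tests were chosen with earlier results of these data known, among them the study's own listing of Mir568, Mir679, Mir680-1 and Mir137. Named were Mir568, members meeting the criterion in any comparison, the 3 smallest p in each, the members nearest the mean of 5, up to 3 of each list, their hosts, and the 3 highest and 3 lowest host correlations. Alternatives covered the test, scaling, thresholds, covariates, array weights, replicate blocks and each array left out. The members outside chromosome 12 were set apart, and further members outside these rules were named, after seeing the data.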

Additional observations from a re-analysis of the deposited data

Results flagged for a closer look

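A single value far from the rest (gap to the nearest over the range above 0.71) was searched for in 76 groups of 5 arrays. These covered members named by the criterion or by smallest p, the class median and the median of the chromosome 12 cluster. The search found 3, all in single members and none in the medians, where chance gives about 1 in 20 groups. Mir9-3 stood at 6.35 in WT stress replicate 1, with the nearest array of the group at 5.86 (gap over range 0.778). Mir331 stood at 6.13 in WT con replicate 1, with the nearest at 6.93 (0.854). Mir185 stood at 7.02 in KO con replicate 2, with the nearest at 6.85 (0.752), and remained below every WT con array.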

How the results depend on the processing

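No comparison reversed its direction where a call had been made. Counts of members meeting the criterion were small and moved with the setting, and the cause was not tested. With all arrays they were 1 for WT stress vs. con, 0 for KO stress vs. con, 0 for con KO vs. WT and 5 for stress KO vs. WT, beside 1 for the interaction at p under 0.05. The 1 in WT mice and for the interaction is Mir568, given as a description of the values it was chosen for. The methods' t-test gave 1 for con KO vs. WT and 2 for stress KO vs. WT, where 20 and 142 of all probe sets met the criterion. Welch's form gave 1 and 1, and limma on only the groups compared gave 2 and 3. The fold of linear means gave 1 for con KO vs. WT, and a choroid plexus score as covariate gave 1 there and 3 for stress KO vs. WT. Quantile normalization gave 0 for WT stress vs. con and 2 for the interaction. Centring arrays on their medians gave 8 for stress KO vs. WT and 3 for the interaction. The interaction count was 2 without the threshold on the mean and 2 with a robust trended fit. Array weights gave 2 for WT stress vs. con, 6 for con KO vs. WT, 2 for stress KO vs. WT and 4 for the interaction. Without both WT replicate 1 arrays these counts were 3, 9, 2 and 6. Leaving out single arrays gave 0 to 1 for WT stress vs. con, 0 to 0 for KO stress vs. con, 0 to 4 for con KO vs. WT, 2 to 36 for stress KO vs. WT (2 without WT stress replicate 1, 36 without replicate 4 and 18 without replicate 5) and 0 to 6 for the interaction (6 without WT stress replicate 1). The 4 for con KO vs. WT came on leaving out WT con replicate 1, and the 0 for WT stress vs. con on leaving out either that array or WT stress replicate 3. Shares of all probe sets at the criterion are not given for these settings, so the counts do not set the class apart. At an unadjusted limma p under 0.05, the share of all probe sets lower in KO stress moved too. It was 2.82% without WT stress replicate 1, 10.8% without replicate 4 and 7.98% without replicate 5. With single arrays left out, class medians ranged from −0.09 to 0.14, −0.04 to 0.01, −0.23 to −0.16 and −0.31 to −0.10 for the comparisons in that order. The methods' t-test at its own threshold passed 1, 2, 47 and 7 members for the comparisons in that order (1.83%, 2.29%, 6.29% and 4.74% of all probe sets), and 0 after Benjamini-Hochberg adjustment.

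Fitted with a replicate block over all 4 groups, the counts were 1, 0, 0, 5 and, for the interaction, 1, so the replicate block changed no count, and a block over WT arrays alone gave 1 for WT stress vs. con. Of the values of named members under other settings, 599 kept their side of the threshold, 39 no longer passed and 18 passed newly. These include values of Mir568 in WT mice and in the interaction, which rest on the values it was chosen for and are no check of it. As a description, its WT difference was 0.58 after quantile normalization and 0.51 on leaving out WT con replicate 1. It was 0.52 on leaving out WT stress replicate 4 and 0.55 on leaving out WT stress replicate 3. In stress KO vs. WT, Mir690 lost its call in 12 of 35 settings, Mir15a in 9, Mir137 in 3, Mir680-1 in 3 and Mir680-2 in 2.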
